A study of Mus musculus with 20 samples.

Results

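Of the 15108 regions in the authors' list of regions closed in PY230 tumour cells with high SOX10, 2006 (13.3%) overlapped no peak of normal mammary cells, and these 2006 regions are described here. They were chosen by position: a region was kept when it shared not even 1 bp with a peak of any of 4 normal cell types, on chromosomes 1 to 19 and X. Both PY230 lists together hold 18316 regions, and the same rule kept 1064 of the 3208 regions open in SOX10-high cells (33.2%). The closed call and the absence of a normal peak chose the regions, so neither is a finding, and the scores and widths, which come from the same calls, are given as a description. No region of the whole closed list overlapped the open list, so that none of the 2006 did is no trait of theirs.

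The 20 samples of the series are nuclei of mouse mammary cells and mammary tumour cells, profiled with ATAC-seq, a method that marks accessible DNA by letting the transposase Tn5 cut it and attach sequencing adapters. The PY230 groups were luminal SOX10-high cells (3 samples) and luminal SOX10-low cells (3 samples), both sorted from tumours that formed after PY230 cells were transplanted into mice of the same strain, C57BL6J. The list was read as a comparison of these groups because the sample descriptions name it with the luminal SOX10-low samples and the open list with the luminal SOX10-high ones. Which libraries entered the calls, and how they were made, is not stated. PY230 is a mouse mammary tumour cell line, so the compared cells descend from cultured cells and not from tumours that arose separately. The normal groups, 2 samples per type, came from mammary glands of C57BL6J mice: fetal mammary stem cells of embryonic day 18, called fMaSC, and 3 adult types, which are basal cells, luminal progenitors and mature luminal cells. Neither the age of the adult mice nor the number of tumours is given in the sources used here. Each list pools samples, so no value per sample could be given, the depth behind each region is unknown, and spread between replicates could not be measured. For that reason no test between sets was made. Intervals are exact (Clopper-Pearson) 95% binomial intervals. They cover counting error only and treat regions as independent, which neighbouring regions are not. Whether intervals overlap is given as a description, and overlap does not show that sets are equal.

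SOX10 is a transcription factor of the SoxE group that directs neural crest cells and their glial and pigment cell descendants. In the mammary gland it is known from fetal and progenitor cells. Mature luminal cells are the hormone-sensing cells of the inner layer of the gland, luminal progenitors give rise to the milk-secreting lineage, and basal cells form the contractile outer layer. Tumour cells can carry accessible regions that the normal tissue lacks as well as regions that it shares. A region without a peak is a place where the enrichment in the pooled normal samples did not pass the authors' threshold (q-value 0.001), which is not the same as closed chromatin.

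The mature luminal list kept more closed regions out of the set on its own than any other list. Mature luminal peaks were the only normal peaks in 6146 closed regions (40.7%), against 155 for basal cells, 94 for fMaSC and 33 for luminal progenitors. The order was different in the open list, where luminal progenitor peaks stood alone in 483 regions (15.1%), those of fMaSC in 308 (9.60%) and those of mature luminal cells in 17 (0.530%). Without the mature luminal list, 8152 closed regions (54.0%) would have had no normal peak. Leaving out the fMaSC, basal or luminal progenitor list would have left 2100, 2161 or 2039.

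The regions outside normal peaks covered 1.95 Mb in all, compared with 16.2 Mb for the 13102 closed regions that overlapped a normal peak. Their width ran from 400 to 3000 bp with a median of 900 bp and quartiles of 700 and 1100 bp. The other closed regions had a median of 1100 bp and reached 10200 bp, and the open regions outside normal peaks had a median of 1200 bp. Closed regions outside normal peaks were therefore the narrowest of these sets by median. With every closed region set to 500 bp the share without a normal peak was 14.8%, and whether size alone eases overlap was not tested. At the listed widths the share of closed regions without a normal peak fell as width rose. It was 23.7% (22.0 to 25.5%) among regions of 300 to 700 bp, 16.7% at 800 to 900 bp, 13.5% at 1000 to 1100 bp and 10.8% at 1200 to 1400 bp. Among regions of 1500 bp or more it was 4.95% (4.24 to 5.74%).

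The score that the authors gave each region, on a scale not given in the sources used here, ranged from 22.5 to 3300 in the closed regions outside normal peaks. Its median was 109 (103 to 117, from binomial order statistics) and its quartiles were 57.8 and 212. Closed regions with a mature luminal peak had a median score of 133 (129 to 137). The 545 closed regions that lacked a mature luminal peak but held a peak of another normal type had the lowest median of the closed sets, 51.2 (46.6 to 54.9). Closed regions with no normal peak at all thus scored nearer to those with a mature luminal peak than to those with only other peaks. Open regions outside normal peaks had a median of 44.1. Scores of the open and closed lists are set side by side here without knowing that they share a scale.

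**Figure D1:**
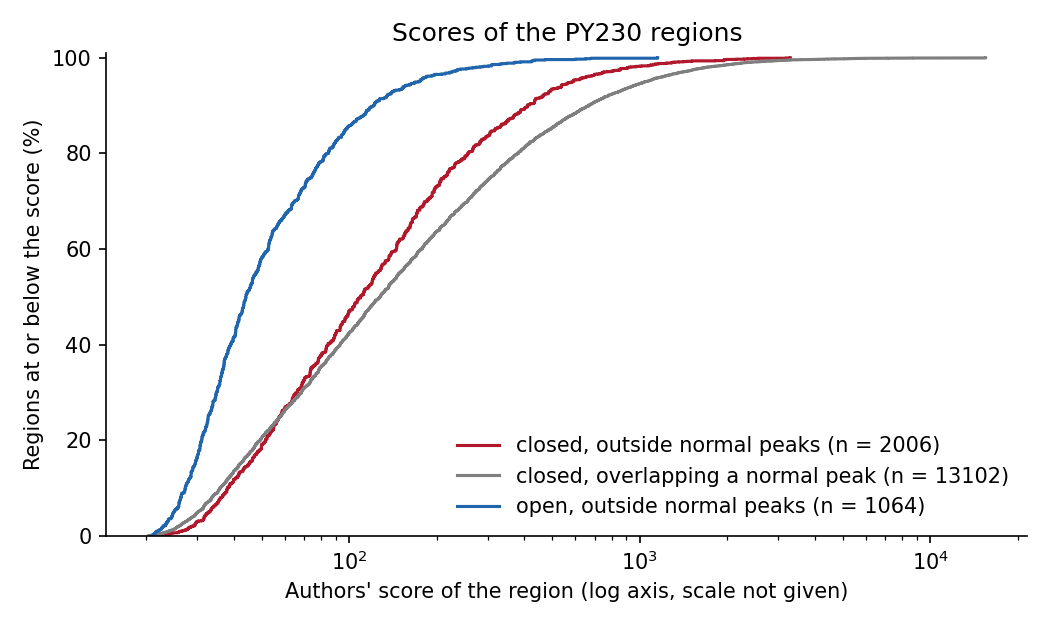
Cumulative share of regions (%) against the authors' score (log axis) for closed regions outside normal peaks, closed regions that overlap a normal peak and open regions outside normal peaks. The closed regions outside normal peaks run beside the other closed regions up to the lower quartile (57.8 and 58.1) and fall behind at high scores, with upper quartiles of 212 and 306. The 3 infinite scores lie beyond the axis.

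The highest scores of the closed list were rarely outside normal peaks. The best member ranked 61st of the 15108 closed regions, 2 were among the first 100 and 53 among the first 1000 (5.30%, 3.99 to 6.88%), against 13.3% of the whole list. Scores above 1000 were held by 36 of the 2006 regions and by 709 of the 13102 other closed regions. None had an infinite score, which 3 other closed regions had. When the list was cut by score into 10 equal classes, the share outside normal peaks was 10.7% (9.14 to 12.3%) in class 1, the lowest, was highest in class 3, at 17.1% (15.2 to 19.1%), and was 5.76% (4.64 to 7.06%) in class 10. Over all widths together, classes 1 and 10 therefore overlapped normal peaks more often than class 3. For the weakest calls this did not hold at every width. Among regions of 1500 bp or more, the lowest of 5 equal score classes had the highest share outside, 7.75% (5.89 to 9.96%). The next class had 6.13% (4.41 to 8.25%).

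The drop at high scores depended on the width. Among closed regions of 300 to 700 bp, 25.1% (20.6 to 30.0%) of those in the highest of 5 equal score classes lacked a normal peak, compared with 20.3% (16.3 to 24.8%) in the lowest class, and these intervals overlap. Among regions of 1200 to 1400 bp the share was 4.54% (3.08 to 6.42%) in the highest class and 9.70% (7.61 to 12.1%) in the lowest. At 1500 bp or more it was 2.12% (1.22 to 3.42%) and 7.75% (5.89 to 9.96%). Narrow closed regions were outside normal peaks about equally often at all scores, and wide ones with a high score nearly always held a peak. In the same way the median score of regions of 300 to 700 bp was 120 in both sets, whereas at 1500 bp or more it was 78.6 outside normal peaks and 127 in the other closed regions. Within the 2006 regions, score and width were weakly related (Spearman's rho of -0.11 across regions, which share libraries and are not replicates).

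**Figure D2:**
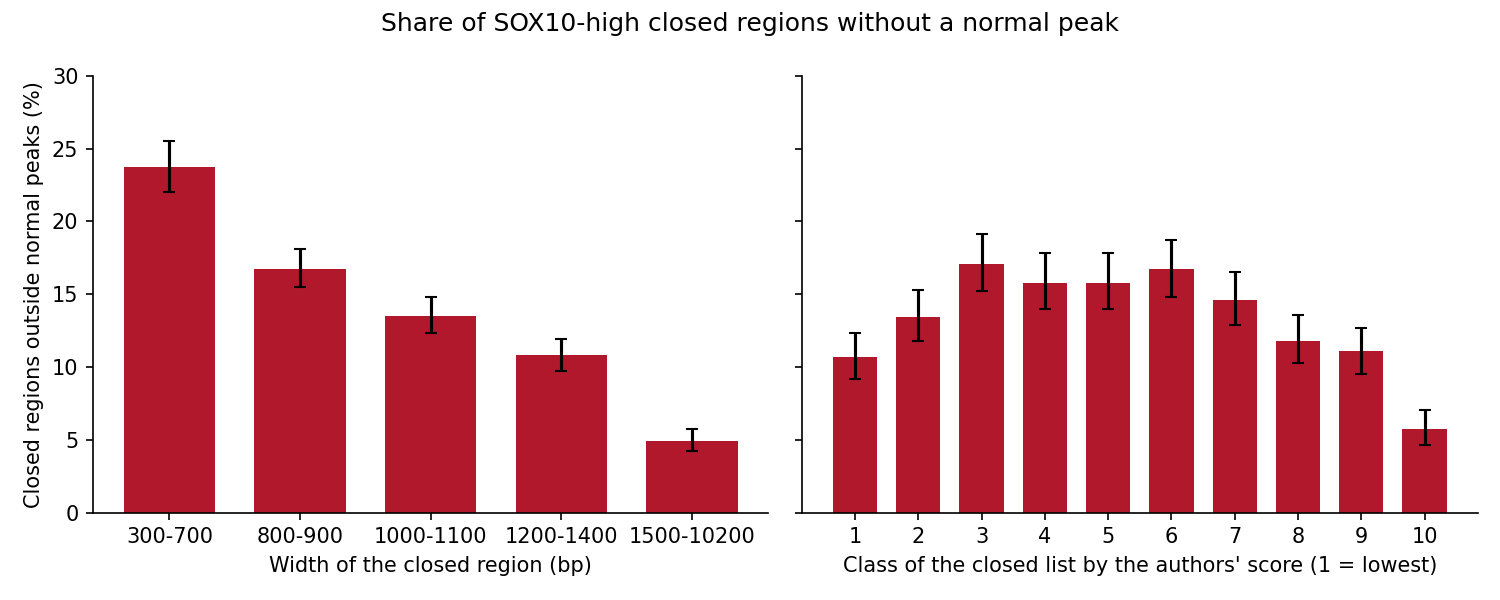
Share of closed regions with no normal peak (%), by width in bp (left) and by 10 equal classes of the closed list by score, from 1 as the lowest (right), with exact 95% binomial intervals as bars. The share falls from 23.7% in the narrowest class to 4.95% in the widest, and is 10.7% in score class 1, 17.1% in class 3 and 5.76% in class 10.

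The 10 regions of highest score lay on 7 chromosomes and were 700 to 1300 bp wide, with scores from 1950 to 3300. The leading region, chr19:10440301-10441100 (mm9, as are all positions here), had a score of 3300 and lay 6383 bases from its nearest normal peak, a mature luminal one, and 21950 bases from a basal peak. The second, chr2:101907501-101908600, had a score of 3186, with a mature luminal peak 4560 bases away and another closed region 4301 bases away. The third, chr4:139726301-139727200, scored 2550 and stood 9225 bases from a mature luminal peak but 191192 bases from a basal one. In all 3 another closed region lay nearer than the mature luminal peak, at 5901, 4301 and 8301 bases. Whether that closed region overlapped the same peak was not checked. The mature luminal list held the nearest peak for 6 of these 10 regions, luminal progenitors for 2, and fMaSC and basal cells for 1 each. Within 10 kb, 4 of the 10 had another closed region and 0 had an open one. With 10 regions, 0 allows a share of up to about 30%, an approximate limit of 3 counts and not an exact interval.

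Some of these strong regions stood in stretches almost free of normal peaks. The region chr11:105528001-105528900, with a score of 2451, was 64147 bases from any normal peak and 231001 bases from another closed region. The region chr10:15678401-15679100, with a score of 1950, was 128191 bases from a mature luminal peak and 548363 bases from a basal one. By contrast the region chr8:114542301-114543100, with a score of 2145, had peaks of all 4 types at about the same distance, from 5875 to 6072 bases. The sequences and genes at these sites are not analysed here, because no mm9 genome was used.

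The 10 widest regions, 2300 to 3000 bp, shared no member with the 10 of highest score. Their scores ran from 27.1 to 523, and 7 of them were below the median of 109. The widest, chr4:154573301-154576300, had a score of 34.9 and lay 694 bases from a basal peak, 886 bases from a mature luminal peak and 925 bases from a luminal progenitor peak. The second, chr6:146634201-146636900, had the highest score among them (523) and peaks of all 4 types between 10035 and 10215 bases away. All 10 lay between 524 and 10035 bases from a normal peak.

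Although none touched a normal peak, most of the regions lay close to one. The distance from edge to edge had a median of 3593 bases (3318 to 3866), with quartiles of 1396 and 8995 bases. It was at most 1 kb for 346 regions (17.2%), between 1 and 5 kb for 856 (42.7%), between 5 and 10 kb for 357 (17.8%) and between 10 and 50 kb for 412 (20.5%). Only 35 regions (1.74%) were more than 50 kb away. For the open regions outside normal peaks the median was 4023 bases (3687 to 4495), and 42 of 1064 (3.95%) were beyond 50 kb. Peaks flanked every closed region of the set on both sides, with a median gap of 19946 bases between them, and both flanking peaks were within 10 kb for 745 regions (37.1%).

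The edge of the rule was sharp in number but not in distance. The 3 members nearest to a normal peak lay 13, 22 and 55 bases from it, at chr6:72223301-72224400, chr2:160803301-160804300 and chr2:101827201-101828200, with scores of 41.8, 165 and 371. The 3 closed regions that just failed the rule shared 18, 45 and 47 bases with a peak, with scores of 41.8, 64.9 and 61.4. Few regions lay so near the edge. Only 16 members were within 200 bp of a peak, and 1660 would remain if a peak within 1 kb counted as overlap. Only 3 closed regions were kept out by an overlap of 50 bases or fewer. The number depended more on how much overlap was asked for, and was 5949 when a peak had to cover 50% of the region.

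The farthest members lay on chromosomes X and 1. The region chrX:84319501-84320500 was 444764 bases from the nearest normal peak and had a score of 52.1. The region chrX:21825301-21826500 was 373645 bases away with a score of 47.7, and the region chr1:111595401-111596100 was 201990 bases away with a score of 89.0. None of these 3 scored above the median of the set. In general, though, distant members did not score lower. The median score was 83.0 within 1 kb of a normal peak, 103 between 1 and 5 kb, 126 between 5 and 10 kb, 139 between 10 and 50 kb and 189 beyond 50 kb, where only 35 regions contributed. Spearman's rho between score and distance was 0.15 across the 2006 regions, a weak relation, and 0.11 across the open regions outside normal peaks. The median width was 900 bp in all 5 distance classes.

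The nearest normal peak was a basal one for 758 regions (37.8%, 35.7 to 39.9%), a mature luminal one for 668 (33.3%, 31.2 to 35.4%), an fMaSC one for 370 (18.4%, 16.8 to 20.2%) and a luminal progenitor one for 220 (11.0%, 9.63 to 12.4%), with 10 ties counted for each type. Longer lists have nearer peaks by number alone, and the basal and fMaSC lists hold 80294 and 79910 peaks against 61584 in the mature luminal list and 60030 in that of luminal progenitors. The open regions outside normal peaks, set against the same lists, differed most in the luminal types. Their nearest peak was mature luminal in 17.9% (15.6 to 20.3%), luminal progenitor in 23.5% (21.0 to 26.2%), fMaSC in 24.4% (21.9 to 27.1%) and basal in 34.9% (32.0 to 37.8%). The mature luminal share was thus higher in the closed set and the luminal progenitor and fMaSC shares lower, with intervals that do not overlap, while the basal intervals overlap.

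Equal numbers of peaks gave the same contrast between the sets. Taking only the 30015 peaks of highest fold from each list, the nearest was mature luminal for 34.4% of the closed regions and 19.5% of the open ones, and luminal progenitor for 15.9% and 26.9%. Basal peaks were nearest for 37.6% and 37.5%. Peak strength was read at the mature luminal peak closest to each of the 2006 closed regions, also where another type was nearer. The median distance to it was 6992 bases, although basal peaks were the nearest for more members. To the closest basal, fMaSC and luminal progenitor peaks the medians were 7364, 7626 and 9665 bases. The closest mature luminal peak had a median fold enrichment, the authors' value for each peak, of 8.72. That of the whole mature luminal list was 8.47. For the other 3 types, the closest peak of the type had the median fold of its own list. These medians were 7.98 for basal peaks, 7.60 for fMaSC peaks and 6.86 for luminal progenitor peaks.

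When the 4 lists were merged into 128800 normal regions, the one nearest to each closed region outside peaks could be described by the cell types that hold it. It held a peak in all 4 types for 437 members (21.8%), close to the 21.7% of all merged regions. It was found in mature luminal cells alone for 396 members (19.7%, upper limit 21.6%), compared with 12.2% of all merged regions and 10.6% (8.83 to 12.6%) of those nearest to open regions outside peaks. Basal cells alone accounted for 13.4%, fMaSC alone for 11.5% and luminal progenitors alone for 3.04% (2.33 to 3.89%), against 15.5%, 13.5% and 4.76% of all merged regions. A mature luminal peak, alone or with others, was present in 58.0% (55.8 to 60.2%), against 45.9% of all merged regions.

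The nearest normal region was often itself closed in SOX10-high cells. It overlapped a region of the closed list for 514 members (25.6%, 23.7 to 27.6%) and a region of the open list for 18 (0.897%, 0.533 to 1.41%). Among all merged normal regions, 11.0% overlapped the closed list and 1.88% the open list. Around the open regions outside normal peaks the shares were the other way round relative to these values, at 5.45% (4.16 to 6.99%) closed and 9.21% (7.54 to 11.1%) open. Members that lie near each other can share a nearest region, so these counts hold repeats. Of the 13102 closed regions with a normal peak, 12557 had a mature luminal one. The closed share and the mature luminal share of the nearest normal regions are therefore not separate observations. How many members count in both was not determined. The closed share was 32.4% (27.5 to 37.6%) for members within 1 kb of the normal region and 21.6% (17.7 to 25.9%) for those between 10 and 50 kb away. By score it was 19.7% (16.3 to 23.5%) in the lowest of 4 equal classes of the members and 31.3% (27.3 to 35.6%) in the highest. The share with a mature luminal peak as the nearest was 27.9% (24.0 to 32.0%) and 37.3% (33.1 to 41.7%) in these classes. From the lowest class to the highest, the nearest normal region held a mature luminal peak for 56.6%, 54.5%, 62.2% and 58.9%, with no steady rise.

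**Figure D3:**
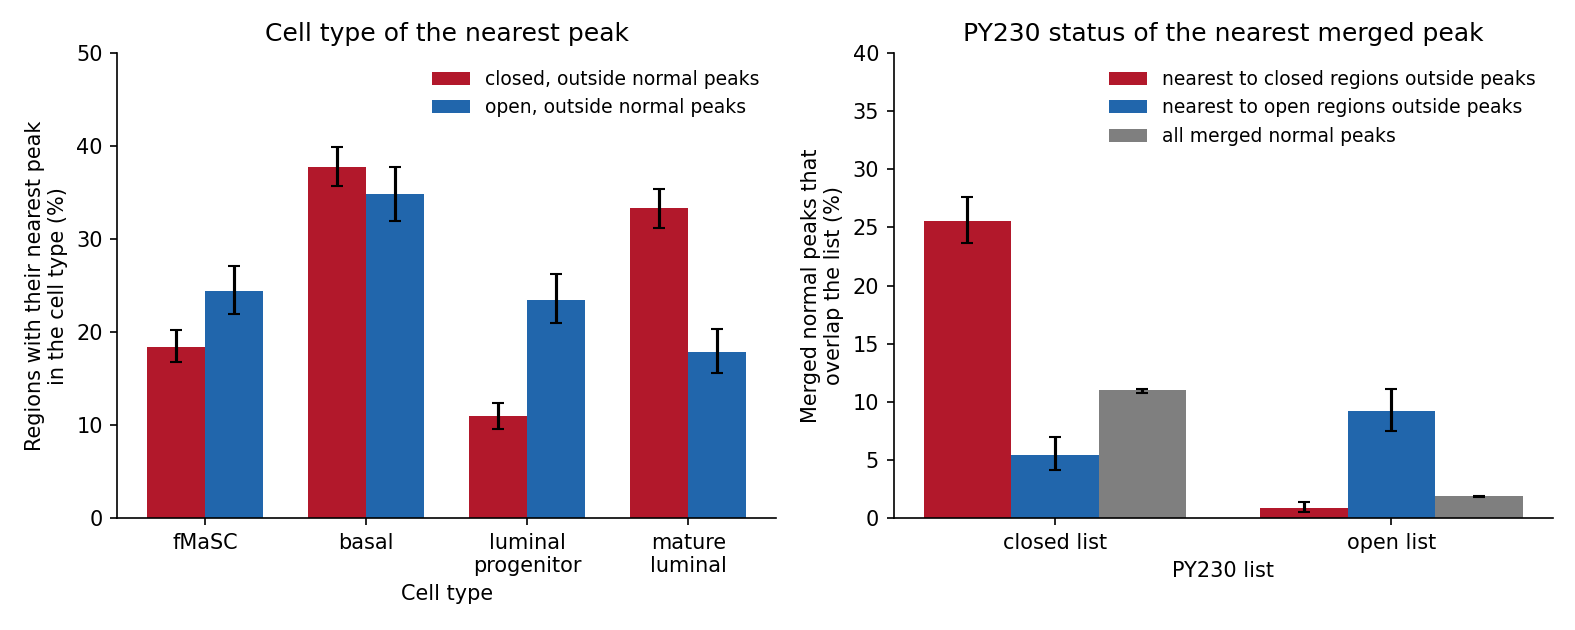
Left, share of regions (%) whose nearest normal peak belongs to each of 4 cell types, for closed and open regions outside normal peaks. Right, share of merged normal peaks (%) that overlap the closed or the open PY230 list, for those nearest to each set and for all merged peaks. Bars show exact 95% binomial intervals. Mature luminal peaks were nearest for 33.3% of closed and 17.9% of open regions, and the nearest merged peak was closed for 25.6% and 5.45%.

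Other closed regions were frequent neighbours, above all of members near a normal peak. For members within 1 kb of a normal peak, 56.4% (51.0 to 61.7%) had another closed region within 10 kb. For those between 10 and 50 kb away the share was 10.2% (7.45 to 13.5%). The shares that follow are over all members. Another closed region lay within 1 kb of 173 members (8.62%, 7.43 to 9.94%), within 10 kb of 755 (37.6%, 35.5 to 39.8%) and within 100 kb of 1719 (85.7%, 84.1 to 87.2%). In the other closed regions these shares were 6.78% (6.35 to 7.22%), 34.0% (33.2 to 34.8%) and 84.2% (83.5 to 84.8%), with intervals that lie apart at 1 and 10 kb and overlap at 100 kb. At 5 kb the shares were 25.2% (23.3 to 27.1%) and 22.8% (22.1 to 23.5%), which overlap. The 10 kb intervals overlap too once closed regions within 500 bp of each other are merged, at 34.5% (32.4 to 36.7%) and 31.9% (31.1 to 32.7%). At equal width the difference was largest among narrow regions. Among regions of 300 to 700 bp, 38.1% (33.9 to 42.3%) of members and 27.2% (25.1 to 29.3%) of other closed regions had a closed neighbour within 10 kb. Among regions of 1500 bp or more the shares were 44.3% (36.6 to 52.2%) and 41.3% (39.6 to 43.0%), which overlap.

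Open regions were rare nearby. An open region lay within 10 kb of 45 members (2.24%, 1.64 to 2.99%) and of 2.01% (1.78 to 2.27%) of the other closed regions, a difference inside the counting error. The open list is the shorter one, and open regions outside normal peaks had an open neighbour within 10 kb in 20.8% (18.4 to 23.3%) and a closed neighbour in 9.40% (7.71 to 11.3%). The median distance from a member to the nearest open region was 322751 bases, against 18601 bases to the nearest other closed region.

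**Figure D4:**
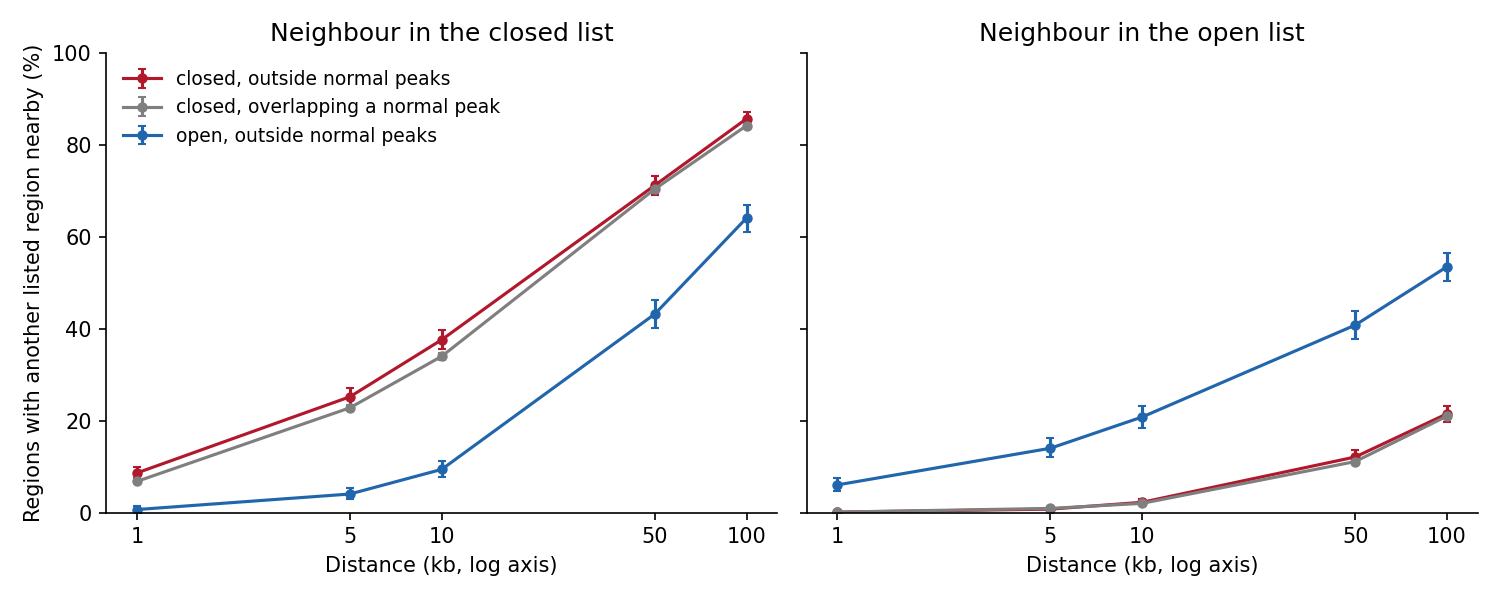
Share of regions (%) with another region of the closed list (left) or the open list (right) within 1, 5, 10, 50 and 100 kb (log axis), with exact 95% binomial intervals. Closed regions outside normal peaks follow the other closed regions in both panels, with 37.6% and 34.0% having a closed neighbour within 10 kb, and open regions outside normal peaks are at 9.40%.

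Chains of closed regions were formed by linking those no more than 10 kb apart. Of the 2006 members, 1251 (62.4%) stood alone, 661 (33.0%) were in chains with closed regions that overlap normal peaks, and 94 were in 46 chains of members only, the longest of 3. Among all 15108 closed regions 9896 stood alone, and 5212 (34.5%) had another within 10 kb, against 37.6% of members. The nearest closed region was itself a member for 352 of the 2006 (17.5%, 15.9 to 19.3%) and for 12.7% (12.2 to 13.3%) of the other closed regions, beside a share of 13.3% in the list. In chains of 3 or more, members made up 14.6% (12.5 to 16.9%) of the end regions and 14.5% (12.1 to 17.1%) of the inner ones, a difference inside the counting error. The richest chains held 4 members among 6 closed regions, at chr11:109227701-109253800 and chr6:137569501-137599100. Both were picked for their number of members, so that number is no evidence of grouping.

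The densest window of 1 Mb, chr3:143751400-144751399, held 11 members of 20 closed regions and 0 open ones, with scores from 31.5 to 435 and distances of 694 to 24858 bases to a normal peak. The next ones, chr12:112192850-113192849 and chr15:101687100-102687099, held 9 members each, of 23 and 21 closed regions, and 2 open regions each. The first window held 100 merged normal regions and the others 131 and 130. These windows were picked as the densest, so their counts are no evidence of grouping.

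Regions that set a normal cell type apart from the others, given by the authors as UAR and URR lists whose names the labels do not expand, were set beside the members. Of these 11322 regions, 11318 overlapped a normal peak, so the rule itself limits their overlap with members. There were 6 members that overlapped a mature luminal UAR and 3 that overlapped a basal UAR. Among members that did not overlap one, 7.65% (6.52 to 8.90%) had a mature luminal UAR within 10 kb. The same share was 7.22% (6.73 to 7.73%) in the other closed regions and 2.54% (1.68 to 3.67%) in the open regions outside normal peaks. For basal UARs the shares were 6.14% (5.13 to 7.28%), 6.30% (5.89 to 6.74%) and 6.67% (5.25 to 8.34%), and these intervals overlap. Mature luminal URRs lay within 10 kb of 1.50% (1.01 to 2.13%) of members, 0.725% (0.587 to 0.886%) of other closed regions and 3.20% (2.22 to 4.44%) of open regions outside normal peaks.

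By chromosome, the share of closed regions outside normal peaks was lowest on chromosome 7, with 90 of 913 (9.86%, 8.00 to 12.0%), and highest on chromosome X, with 43 of 229 (18.8%, 13.9 to 24.4%). These were the only 2 of 20 intervals that missed the share of the whole list, 13.3%, where 1 miss in 20 is usual for intervals at 95%. Chromosome X had few normal peaks, 17.0 merged regions per Mb between its first and last, compared with 42.9 to 65.1 per Mb on the autosomes. Members on X had a median of 7725 bases to a normal peak. The 54 members on chromosome 18, where merged regions numbered 50.6 per Mb, had a median of 7808 bases. Whether these distances follow the density of normal peaks was not tested. Per Mb, members were densest on chromosome 11 (1.18) and sparsest on X (0.265). Per 1000 merged normal regions the range was narrower, from 12.1 on chromosome 7 to 19.3 on chromosomes 6 and 14, with X at 15.6.

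**Figure D5:**
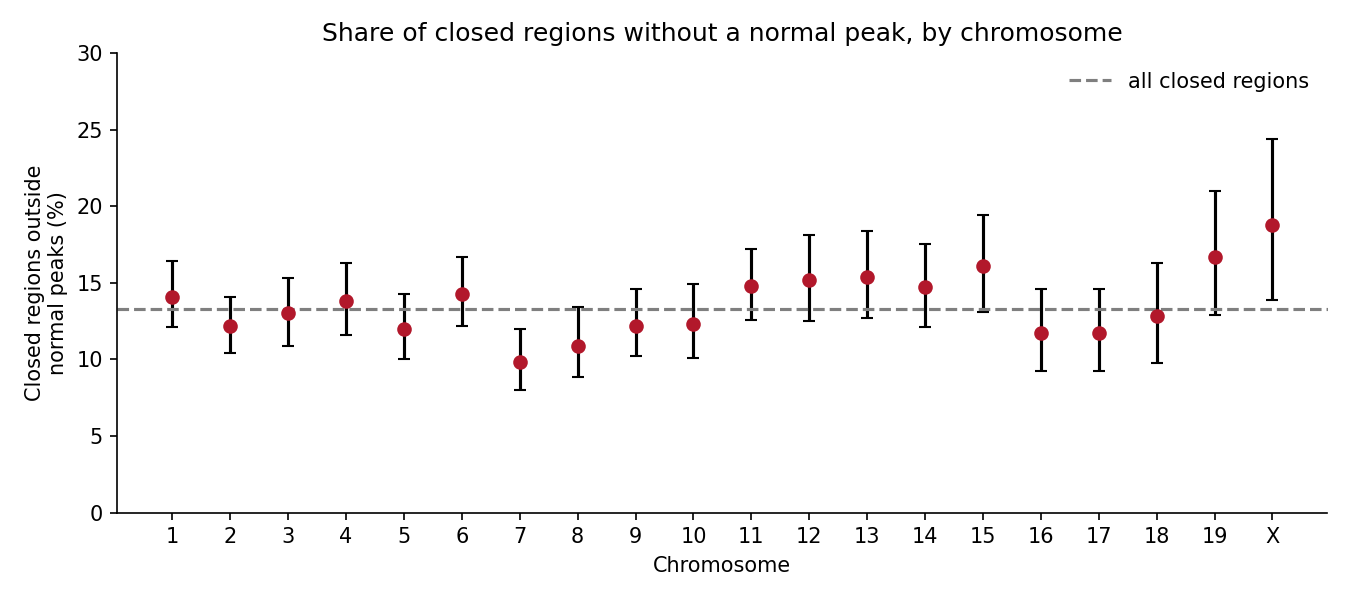
Share of closed regions with no normal peak (%) on each of 20 chromosomes, with exact 95% binomial intervals, and the share over all closed regions as a dashed line. Chromosome 7 (9.86%) lies below the line of 13.3% and chromosome X (18.8%) above it, and the other intervals cross it.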

How the data were processed

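ATAC-seq peaks of each normal cell type were called with MACS2 on both samples together (q-value 0.001), per the labels, and each deposited peak carries a fold enrichment, the ratio over the caller's own background. The closed, open, UAR and URR lists carry a score deposited by the authors, whose scale these sources do not state. Tools in the submitters' processing notes, given with no role, are MACS2 2.1.1, SICER, Bowtie 0.12.8, bedtools 2.20.1, FastQC and SAMtools 1.3.1, and the build is mm9. The sources used here do not say how duplicates, repeats or the Tn5 offset were handled.

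Positions are 1-based. Edges of the closed, open, UAR and URR lists lie on a grid of 100 bp, so 1 base was added to their positions. Peaks on the mitochondrial chromosome were not used. Overlap means at least 1 bp, and a distance is the number of bases from edge to edge. Peaks were merged where they overlapped. The regions and lists were chosen with earlier results of these data known. Regions named are the 10 of highest score, the 10 widest, the 3 farthest from and nearest to a normal peak, the 3 that just failed, and the 3 densest windows of 1 Mb, of which the text gives a part. Chains, UAR distances and classes by width, score and distance were added after the data were seen. No mm9 genome was used, so the planned motif, GC and gene results were not run and no sequence is printed. Analyses used Python 3.11.15, numpy 2.4.6, pandas 2.3.3, scipy 1.17.1 and matplotlib 3.10.9. Overlaps and distances were tested on simulated data and equalled those of bedtools 2.31.1. The other PY230 samples and the C3-1-TAg tumours were not analysed here.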

Additional observations from a re-analysis of the deposited data

How the results depend on the processing

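The number of closed regions outside normal peaks moved by more than 1.5 times under 4 alternatives. It was 5949 (39.4%) when overlap required 50% of the region to be covered, 6322 (41.8%) with peaks at or above the median fold of their list, 6880 (45.5%) with the 30015 strongest peaks of each list and 8152 (54.0%) without the mature luminal list. Many closed regions were thus kept out of the set only by weaker peaks or by partial overlap. The share moved less, but outside its interval, with a peak within 1 kb counted (11.0%), regions set to 500 bp (14.8%), and without the fMaSC (13.9%) or basal list (14.3%). With the strongest peaks the share on chromosome X was 50.7%.

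Members at or above the median score of the closed list had a median score of 230, a median of 4518 bases to a normal peak and an open region within 10 kb in 1.21%. A closed neighbour lay within 5, 50 and 100 kb of 25.2%, 71.2% and 85.7% of members and an open one within 5, 50 and 100 kb of 0.748%, 12.1% and 21.5%. Merging closed regions within 500 bp gave a closed neighbour within 10 kb for 34.5% of members (32.4 to 36.7%) and 31.9% of other closed regions (31.1 to 32.7%), so the intervals, apart before merging, then overlapped. With the strongest peaks the nearest was fMaSC for 12.6% and luminal progenitor for 15.9%. The densest 500 kb window held 7 members. The other 34 of 60 alternatives stayed within the interval, or within 1.5 times for counts. No paired analysis was possible because every list pools its samples, and for the same reason no sample could be left out. Depth is unknown, so a missing peak may reflect the depth of the normal libraries, which was not tested.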
